A study of Homo sapiens with 6 samples.

Results

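Genes for potassium, sodium, calcium and glutamate channels were followed in RMS13 cells, an established human line from a rhabdomyosarcoma, a tumour that resembles skeletal muscle. Of the 25702 genes in the table, 153 had a symbol beginning with KCN, with SCN or GRIA, GRIK or GRIN and a digit, or with CACN, and no hyphen. Of these, 151 encode proteins and 2, KCNQ1OT1 and KCNQ1DN, do not. RNA was sequenced in 3 libraries of the siGLI1 group, given small interfering RNA (siRNA) to lower GLI1, and 3 of the siNT2 group, given a non-targeting siRNA, all after 72 h. Both groups were grown alike and carried no other treatment named in the labels. The comparison asks which channel genes change in level when GLI1, a zinc finger transcription factor through which Hedgehog signals reach their target genes, is lowered.

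An ion channel is a protein pore that lets chosen ions cross a membrane when voltage, a transmitter, calcium or another signal opens it. Voltage-gated sodium channels start an action potential, voltage-gated calcium channels turn it into calcium entry, and potassium channels end it and hold the cell at rest. Pore-forming alpha subunits set which ion passes, and auxiliary subunits set how many pores reach the surface and how fast they open. In skeletal muscle the sodium channel Nav1.4 carries the action potential, and the voltage sensor Cav1.1 couples it to contraction. AMPA, kainate and NMDA receptors are cation channels opened by glutamate and are best known at synapses between neurons.

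The channel genes moved in both directions. GRIN1, which encodes the subunit that every NMDA receptor contains, fell to 3.49% of its siNT2 mean, and CACNA1H and CACNA1G, which encode T-type calcium channels, fell with it, as did CACNA2D4, KCNG1 and KCNC1. Most of the genes that rose belong to potassium channels, as do most of the members tested. KCNE4 had the largest fold change of those that rose, from values near the floor in siNT2. A gene counted as tested when its mean normalised read count over the 6 libraries was 10 or more, which 65 of the 153 reached. The test was limma on log2(value + 1), a gene was called at an adjusted p under 0.05, and fold changes below are siGLI1 minus siNT2 on that log2 scale, with their standard error (SE). Of the 65, 11 rose, 6 fell and 48 were not called. The calls made up 16.9% of the members tested for higher genes and 9.23% for lower genes, where the shares over all 15622 genes tested were 7.21% and 8%, so the share of lower calls lay near that of all genes. The median log2 fold change was 0.40 over the 65 members and -0.01 over all genes tested, and 43 members (66.2%) lay above 0 against 49.2% of all genes. The groups did not overlap for 18 members higher and 10 lower, together 43.1% of the members tested, while the share over all genes tested was 36.2% (17.4% higher and 18.8% lower). Called members that changed 2-fold or more numbered 6 higher and 5 lower, beside 3.9% and 3.89% of all genes tested. The count tests on recovered reads kept all 17 calls: edgeR called 14 members higher and 6 lower (7.57% and 7.68% of all genes), and DESeq2 18 and 7 (10.5% of all genes in each direction, 21% together). These tests used the same 6 libraries. Of the 17 limma calls, 5 held without any 1 library, and 7 were kept with the replicate number added to the fit. Some members, KCNE4 and CACNG2 among them, reached the mean of 10 only through their siGLI1 values, so these shares describe the genes that passed and support nothing more. Among the 35 members with a mean of 50 or more, 8 were called higher and 6 lower (6.79% and 8.42% of all genes with such a mean).

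**Figure D1:**
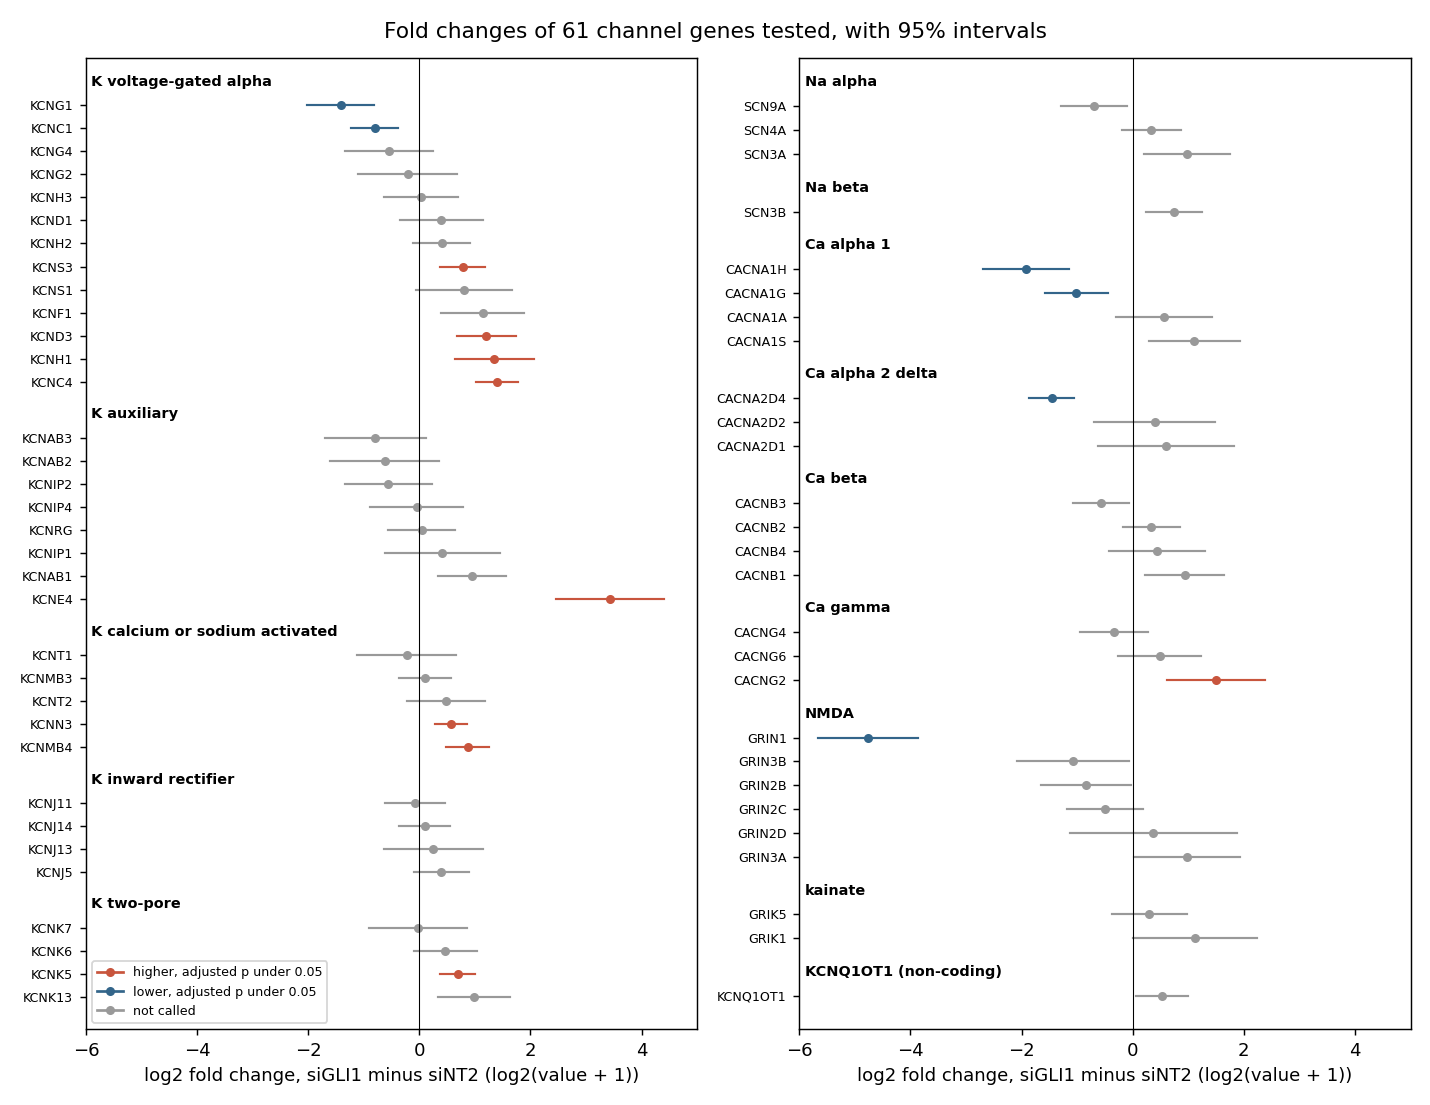
Log2 fold change, siGLI1 minus siNT2, of 61 channel genes tested (points) with 95% confidence intervals from limma (lines), by family; red genes were called higher, blue genes lower and grey genes were not called. GRIN1 at -4.76 lies farthest to the left, and KCNE4 at 3.44 lies farthest to the right.

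Libraries held 13673977 to 18947614 reads, and 19355 to 20292 genes were detected in each. GLI1, the target, went from 11962, 17837 and 12774 normalised reads (siNT2) to 579.9, 906 and 1274 (siGLI1), or 6.48% of the siNT2 mean (log2 fold change -4.0, adjusted p = 0.000425). Libraries differed with the GC content of the transcripts. Over genes, the deviation of a library from each gene's mean in its own group followed GC content. Spearman's rho was -0.485, 0.699 and -0.6 for siNT2 replicates 1 to 3 and -0.697, -0.31 and 0.747 for siGLI1 replicates 1 to 3. The log2 fold change itself followed GC content at rho -0.29 over all genes. Separate cultures are not named for the replicates in the labels, and the p-values therefore rest on a spread between libraries that may be technical only. Because RNA was taken from whole cultures, fewer cells of a type and less RNA per cell cannot be told apart.

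**Figure D2:**
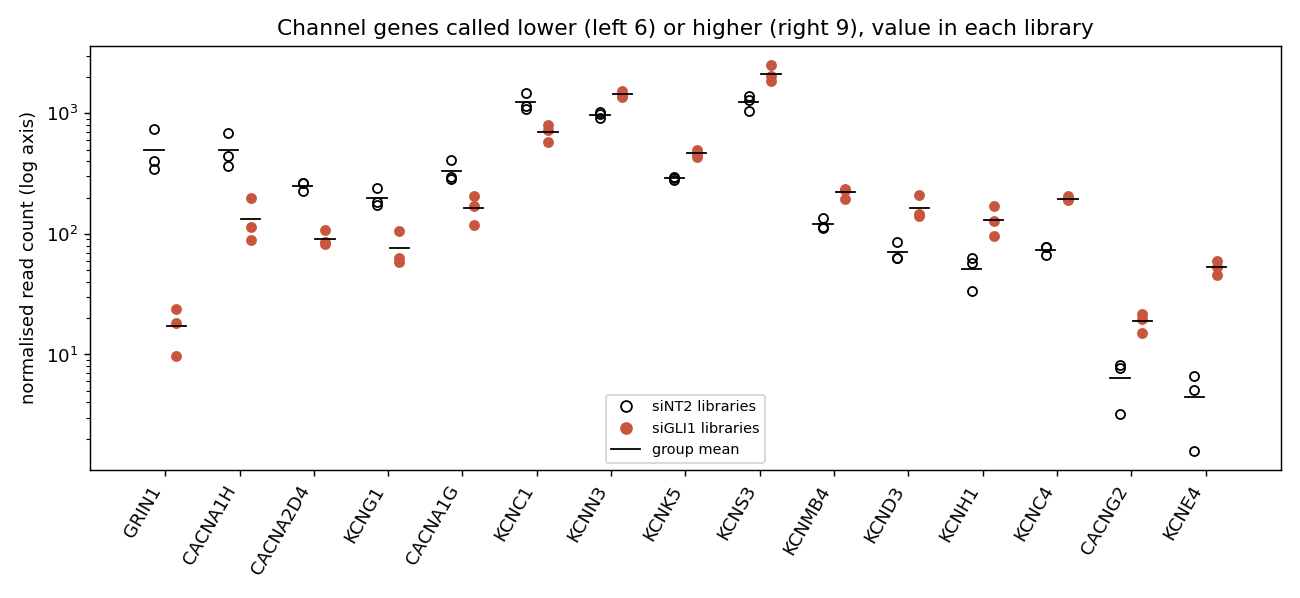
Normalised read count (log axis) of 15 channel genes called, with the 3 siNT2 libraries as open circles, the 3 siGLI1 libraries as filled circles and the group means as bars. The groups do not overlap for any of the 15 genes, and the spread within a group is wide for GRIN1, CACNG2 and KCNE4 and narrow for KCNK5 and KCNC4.

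Among the glutamate receptor genes, GRIN1 (Entrez gene 2902) had normalised read counts of 343, 742 and 399.5 in siNT2 libraries 1 to 3 and 9.72, 18.4 and 23.7 in siGLI1 libraries 1 to 3. Every siGLI1 library lay far below every siNT2 library, and library 2 was the highest of the controls. The mean fell from 495 ± 216 to 17.3 ± 7.06 (SD, n = 3 each), to 3.49% of the siNT2 mean. The log2 fold change was -4.76 (SE 0.39, 95% interval -5.66 to -3.86) with an adjusted p of 0.000629, and the call held when any 1 library was left out. GRIN1 needs a partner subunit that binds glutamate or glycine, and the genes for such partners were present at low levels.

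GRIN3B, an NMDA receptor subunit that binds glycine, had 70.3, 156 and 92.5 normalised reads in siNT2 and 28.1, 44 and 83.9 in siGLI1. Its groups overlapped, and its log2 fold change of -1.08 was not called (adjusted p = 0.136). The other NMDA receptor genes tested, GRIN2B, GRIN2C, GRIN2D and GRIN3A, are named outside the rule, after their values were seen. They had siNT2 means of 41.5, 47.7, 10.3 and 12.3 and siGLI1 means of 24.3, 33.7, 11.5 and 23.9. None of these 4 was called, with log2 fold changes of -0.84, -0.51, 0.37 and 0.98 in that order and adjusted p-values of 0.148, 0.282, 0.73 and 0.149. Summed over the 7 NMDA receptor genes, the mean normalised count went from 713 to 163. GRIN1 alone made up 495 of the first sum and 17.3 of the second, and it was the only call among these genes. GRIN2A, also outside the rule, had reads in 1 library only, at 1.08.

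The nearest tested genes on either side of GRIN1 in the RefSeq gene order were looked at after its value was seen. Genes not tested were passed over, among them LOC105376328, which overlaps GRIN1 and has no values here. LRRC26, the tested gene that follows GRIN1 in that order, encodes an auxiliary gamma subunit of the BK potassium channel. It had 32.9, 49.7 and 43.1 normalised reads in siNT2 and 5.40, 11.2 and 7.90 in siGLI1, with no overlap. Its log2 fold change was -2.25 (adjusted p = 0.00473), and the call held without any 1 library. The 5 other neighbours, MAN1B1-DT, MAN1B1, DPP7, ANAPC2 and SSNA1, were not called, with log2 fold changes of 0.74, -0.09, -0.59, -0.40 and -0.30 and adjusted p-values of 0.0618 to 0.855.

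Kainate receptors were represented by GRIK5, a subunit that works only together with another kainate subunit. GRIK5 had 941, 1529 and 963 normalised reads in siNT2 and 954, 1406 and 1936 in siGLI1, so the groups overlapped and it was not called (log2 fold change 0.30, adjusted p = 0.52). GRIK1, a kainate subunit that can form a channel by itself, went from a mean of 13.2 ± 7.28 to 27.3 ± 9.22 without a call (log2 fold change 1.12, adjusted p = 0.158). None of the 4 AMPA receptor genes was tested. GRIA4 and GRIA3 had 2.03 to 3.29 and 0 to 1.59 normalised reads in siNT2 and 2.96 to 4.09 and 1.98 to 6.48 in siGLI1. The floor, the 3 reads that a library showing none could still hold, equals 2.39 to 3.29 normalised reads depending on the library, and GRIA4 stood at about this floor in both groups. It covers counting error only, because PCR copies of a molecule can be read more than once.

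**Figure D3:**
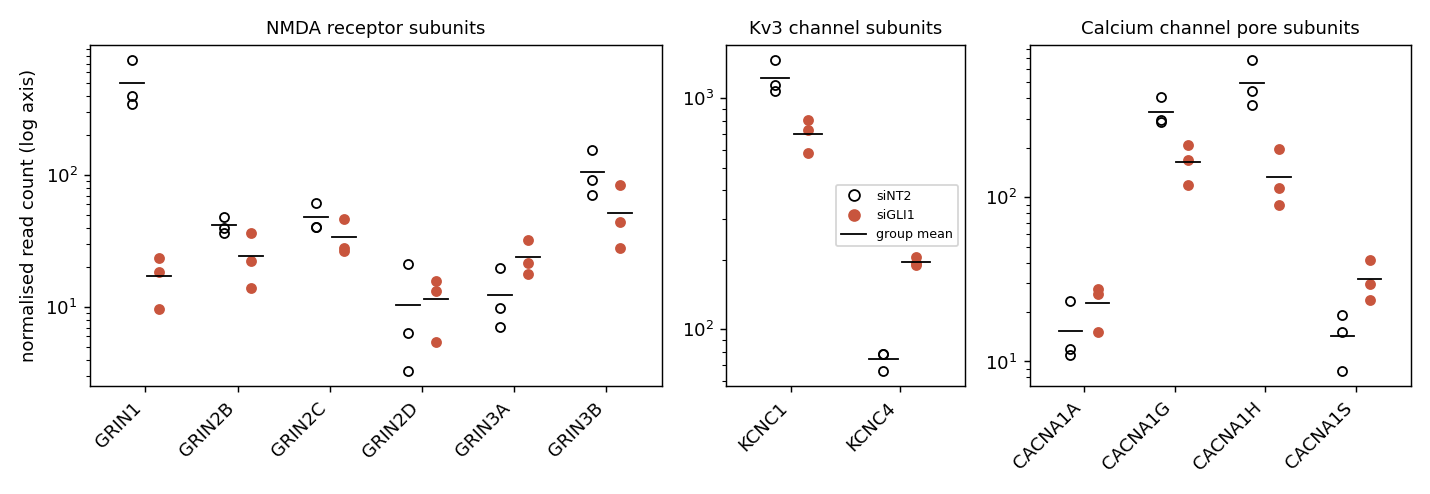
Normalised read counts (log axes) of genes of 3 subunit families, the NMDA receptor, the Kv3 potassium channels and the calcium channel pores, with siNT2 libraries as open circles, siGLI1 libraries as filled circles and group means as bars. GRIN1 is separated by far from its siNT2 values while GRIN2D and GRIN3A overlap between groups, KCNC1 and KCNC4 move in opposite directions, and CACNA1G and CACNA1H lie lower in siGLI1.

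Among the calcium channel pore genes tested, 2 of the T-type fell. CACNA1H (Entrez gene 8912), which encodes the T-type channel Cav3.2 that opens at weak depolarisation, had 362, 683 and 445 normalised reads in siNT2 and 89.6, 113 and 197 in siGLI1. The groups were separate, with siNT2 library 2 the highest of all and siGLI1 library 3 the highest of its group. CACNA1H fell from 497 ± 166 to 133 ± 56.1 (SD, n = 3), a log2 fold change of -1.92 (SE 0.34, adjusted p = 0.0105). Without siGLI1 replicate 2 the adjusted p was 0.0612.

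CACNA1G (Entrez gene 8913), for the T-type channel Cav3.1, went from 287, 409.7 and 296 to 119, 169 and 206. The groups did not overlap, and CACNA1G fell by 1.02 on the log2 scale (SE 0.24, adjusted p = 0.031). This call was kept only when siGLI1 replicate 3 was left out (adjusted p = 0.0145). It was lost without any one of the other 5 libraries, with adjusted p-values up to 0.111. CACNA1I, for the remaining T-type channel Cav3.3, was under the filter, with 0, 1.01 and 0 normalised reads in siNT2 and 2.16, 7.16 and 5.93 in siGLI1.

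CACNA1S encodes Cav1.1, the pore and voltage sensor of skeletal muscle. Its values were 8.78, 15.2 and 19.1 in siNT2 and 23.8, 29.6 and 41.5 in siGLI1, with every siGLI1 library above every siNT2 library. Its log2 fold change of 1.11 was not called (adjusted p = 0.0714). Of the 10 pore genes of this family 4 were tested, and CACNA1H and CACNA1G were the only calls.

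Auxiliary calcium channel subunits raise the number of pores at the surface and shift their gating. CACNA2D4 (Entrez gene 93589), an alpha 2 delta subunit known from the retina, had 225, 266 and 262 normalised reads in siNT2 and 85.3, 81.8 and 107 in siGLI1. Both groups were tight and well apart, and CACNA2D4 fell from 251 ± 22.5 to 91.3 ± 13.5, a log2 fold change of -1.46 (SE 0.17, adjusted p = 0.00252). The call held without any 1 library. CACNA2D1, the alpha 2 delta subunit of skeletal muscle, had 130, 51.7 and 170 in siNT2 and 272, 173 and 84.9 in siGLI1 and was not called (log2 fold change 0.60, adjusted p = 0.479).

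The beta subunit of skeletal muscle is encoded by CACNB1, which had 504, 756 and 411 normalised reads in siNT2 and 701, 1129 and 1398 in siGLI1. Only siGLI1 library 1 lay within the siNT2 range, and the log2 fold change of 0.94 was not called (adjusted p = 0.0785). CACNB3, a beta subunit best known from neurons, had a mean of 224 ± 32.7 in siNT2 and 152 ± 38.4 in siGLI1 and was not called either (log2 fold change -0.57, adjusted p = 0.115). CACNG2 encodes stargazin, a gamma subunit that carries AMPA receptors to the surface. It rose from 7.69, 8.11 and 3.19 to 15.1, 21.5 and 19.8 (log2 fold change 1.5, SE 0.38, adjusted p = 0.0361), a call kept only with siNT2 replicate 2 left out (adjusted p = 0.0454) and lost without any one of the other 5 libraries (0.0541 to 0.151). The gamma genes CACNG6 and CACNG4 were not called at log2 fold changes of 0.49 and -0.34. CACNG1, the gamma subunit of skeletal muscle, stayed under the filter at 1.10, 8.11 and 1.59 in siNT2 and 4.32, 6.13 and 2.96 in siGLI1.

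The RefSeq gene table places CACNA1G over the antisense gene CACNA1G-AS1, CACNA1H over TPSG1 and CACNA2D4 over LRTM2, all of which have values of their own in the table. These overlaps are of whole gene spans, and overlap of exons was not checked. Whether reads were counted by strand is not given in the sources used here. Reads from these pairs may therefore be mixed, and the 3 values carry that uncertainty.

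Voltage-gated potassium channel alpha subunits were the largest family, with 40 genes of which 15 were tested, 5 rose and 2 fell. The Kv3 channels, which close fast and let cells fire at high rates, moved in both directions. KCNC4 (Kv3.4, Entrez gene 3749) had 78, 78.1 and 66.2 normalised reads in siNT2 and 189, 193 and 206 in siGLI1. The values within each group lay close together and far from the other group, at 74.1 ± 6.84 and 196 ± 9.09. KCNC4 rose by a log2 fold change of 1.40 (SE 0.16, adjusted p = 0.00218), a call that held without any 1 library.

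KCNC1 (Kv3.1, Entrez gene 3746) went the other way, from 1079, 1464 and 1146 to 578, 730 and 802. The groups did not overlap, and KCNC1 fell by 0.81 on the log2 scale (SE 0.18, adjusted p = 0.025). Its call was kept without siGLI1 replicate 3 (adjusted p = 0.0176) and lost without any one of the other 5 libraries (0.06 to 0.0998).

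GLI proteins bind the motif GACCACCCA, so promoters of the members were searched for it and its reverse complement TGGGTGGTC. In the RefSeq table of assembly GRCh38.p14, which gives windows of 300 bases that lie mostly upstream of a start, 171 windows of 110 members were found. None of the 171 held the motif, which 0.253% of the 16599 windows of all tested genes held. With so rare a motif, its absence from so few windows decides nothing. Only 7 of the 17 members called had a window, 12 windows in all, and GRIN1 had none. The shorter core CCACCC or GGGTGG was in 42.7% of the 171 windows. It was in 44.7% of the 76 windows of members tested, 58.3% of the 12 of members called and 38.3% of those of all genes tested. The windows of the 2 Kv3 genes that moved in opposite directions are shown with the core in capitals, both on the plus strand, 5′ to 3′.
KCNC4, chr1:110210064-110210363: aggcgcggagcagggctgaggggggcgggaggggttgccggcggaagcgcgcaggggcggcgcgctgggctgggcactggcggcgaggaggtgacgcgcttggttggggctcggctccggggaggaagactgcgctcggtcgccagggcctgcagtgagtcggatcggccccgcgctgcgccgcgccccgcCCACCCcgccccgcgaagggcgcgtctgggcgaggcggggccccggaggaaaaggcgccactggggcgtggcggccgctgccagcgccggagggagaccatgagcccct
KCNC1, chr11:17735698-17735997: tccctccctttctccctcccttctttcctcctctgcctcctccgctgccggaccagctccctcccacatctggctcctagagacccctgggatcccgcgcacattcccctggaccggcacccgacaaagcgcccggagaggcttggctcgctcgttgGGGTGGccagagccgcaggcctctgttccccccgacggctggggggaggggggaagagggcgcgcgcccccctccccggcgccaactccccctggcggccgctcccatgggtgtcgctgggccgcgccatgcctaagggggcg
Each holds 1 copy of the core, in opposite orientation, and their GC contents are 78.7% and 72.3%. A second KCNC1 window in the table, at another start, holds none. A match describes the letters of the window and does not mark a bound site.

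Silent subunits form no channel alone and modify other voltage-gated potassium channels. Of them, KCNS3 (Kv9.3, Entrez gene 3790) had 1395, 1038 and 1291 normalised reads in siNT2 and 2500, 2032 and 1857 in siGLI1. KCNS3 rose by a log2 fold change of 0.78 (SE 0.17, adjusted p = 0.0228), with separate groups, but the call was kept only without siGLI1 replicate 3 (adjusted p = 0.0167), the other 5 omissions giving 0.0549 to 0.0970. KCNG1 (Kv6.1, Entrez gene 3755), also silent, fell from 182, 239 and 175 to 58.3, 63.4 and 106. Its log2 fold change was -1.42 (SE 0.26, adjusted p = 0.0127), and the adjusted p was 0.0506 without siNT2 replicate 1 and 0.0714 without siGLI1 replicate 2. KCNS3 and KCNG1 thus moved in opposite directions.

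KCND3 (Kv4.3, Entrez gene 3752) carries a fast A-type current and had 62.6, 62.9 and 86.1 normalised reads in siNT2 and 211, 146 and 139 in siGLI1. It rose by a log2 fold change of 1.21 (SE 0.23, adjusted p = 0.0139), with an adjusted p of 0.0673 without siNT2 replicate 1 and 0.0594 without siGLI1 replicate 2. KCNIP2, an auxiliary protein of Kv4 channels, was not called (log2 fold change -0.56, adjusted p = 0.3). KCNH1 (Kv10.1, Entrez gene 3756) helps human myoblasts hyperpolarise before they fuse. KCNH1 had 57.1, 33.5 and 63 in siNT2 and 170, 128 and 95.8 in siGLI1, with no overlap between groups and siGLI1 library 3 the nearest to the controls. It rose by a log2 fold change of 1.35 (SE 0.31, adjusted p = 0.0256). The call was lost without siNT2 replicate 1, siGLI1 replicate 1 or siGLI1 replicate 2, at adjusted p-values of 0.0719, 0.0603 and 0.107.

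KCNE4 (Entrez gene 23704), a single-span auxiliary subunit that dampens several voltage-gated potassium channels, had the largest rise of all members tested. It had 6.59, 5.07 and 1.59 normalised reads in siNT2 and 59.4, 53.2 and 45.4 in siGLI1, or 13 and 153 whole reads over each group. All siGLI1 libraries were high, and the siNT2 libraries lay near the floor. KCNE4 rose by a log2 fold change of 3.44 (SE 0.42, adjusted p = 0.00265), which became 2.3 with a pseudocount of 8, and the call held without any 1 library. The other 7 auxiliary genes tested were not called. KCNAB3, a beta subunit of the Kv1 channels, was among them at a log2 fold change of -0.79 (adjusted p = 0.214).

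An earlier look at these data had found the heptamer GCACCTC in the 3′ untranslated regions (UTRs) of genes that fell, so the channel genes were searched for it on the transcript strand, in the longest GENCODE 29 transcript of each gene. Over all tested genes with a 3′ UTR, 1284 of 13182 (9.74%) carried it, and 17.6% of these were called lower against 7.07% of the 11898 without it. Because the heptamer was found in these same data, that contrast is no independent support. Among the members, 17 of 63 (27%) carried it. None of the 17 was called lower and 3 (17.6%) were called higher. Of the 46 members without it, 6 were called lower and 8 (17.4%) higher, so the shares called higher were alike. Over all tested genes with a 3′ UTR, 6.07% of those with it and 8.32% of those without were called higher. Transcripts of the members tested had a median length of 4846 bases, against 3270 over all genes tested, and the part of length was not tested. The 6 members that fell, GRIN1 among them, do not have these letters in that UTR. The sites of KCNE4 and KCNC4, which rose, are shown because both calls held without any 1 library, with capitals marking the heptamer and letters from GENCODE 29.
KCNE4: agccggaaccaGCACCTCcaaggagtccgg
KCNC4 site 1: agctggcttttGCACCTCatttctagggca
KCNC4 site 2: cctgcacgtggGCACCTCagccccaccttc
KCNC4 site 3: tgcactatgatGCACCTCtaaattagtcac
Counted from the first base of the 3′ UTR, the KCNE4 heptamer spans 169 to 175 of 2294 bases. The 3 in KCNC4 begin at 7366, 11123 and 12009 of 16815 bases, so shorter KCNC4 transcripts may lack them.

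Kv1 channel genes, the partners of the beta subunits, were nearly silent. KCNA7, the Kv1 gene known from skeletal muscle, had 0, 2.03 and 1.59 normalised reads in siNT2 and 2.16, 9.20 and 5.93 in siGLI1. No Kv1 gene reached the filter.

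Calcium-activated potassium channels open when calcium rises inside the cell. KCNN3 (SK3, Entrez gene 3782), a small-conductance channel of immature and denervated muscle, had 976, 1023 and 908 normalised reads in siNT2 and 1517, 1362 and 1429 in siGLI1. It rose by a log2 fold change of 0.57 (SE 0.12, adjusted p = 0.0222), with separate groups. Leaving out siNT2 replicate 1, siNT2 replicate 3, siGLI1 replicate 1 or siGLI1 replicate 2 gave adjusted p-values of 0.101, 0.0750, 0.0770 and 0.0956. KCNMB4 (Entrez gene 27345), a beta subunit of the BK channel, rose from 112, 135 and 113 to 195, 229 and 237. Its log2 fold change was 0.87 (SE 0.17, adjusted p = 0.0139), and the adjusted p was 0.0741, 0.0506 and 0.0843 without siNT2 replicate 1, siNT2 replicate 3 and siGLI1 replicate 2. KCNMA1, the pore of the same BK channel, was under the filter, at 1.10, 4.06 and 3.99 in siNT2 and 11.9, 15.3 and 10.9 in siGLI1.

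Inward rectifiers hold the resting potential. None of the 4 tested was called. KCNJ11, the pore of the ATP-sensitive channel of muscle, had 298, 314 and 187 normalised reads in siNT2 and 237, 216 and 292 in siGLI1, with overlapping groups and a log2 fold change of -0.08 (adjusted p = 0.849, 95% interval -0.62 to 0.47). KCNJ14 (Kir2.4) likewise overlapped (log2 fold change 0.10, adjusted p = 0.767, 95% interval -0.36 to 0.55). The muscle inward rectifier genes KCNJ2 (Kir2.1) and KCNJ12 (Kir2.2) lay under the filter. KCNJ2 had 5.49, 2.03 and 1.59 in siNT2 and 17.3, 6.13 and 6.91 in siGLI1, and KCNJ12 had 1.10, 3.04 and 0.797 and 8.64, 12.3 and 11.9. Both genes had every siGLI1 library above every siNT2 library at these low counts.

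Of the 15 genes for leak channels with a pair of pore domains per subunit, 4 were tested. KCNK5 (TASK-2, Entrez gene 8645), a leak channel that opens at alkaline pH, had 295, 279 and 289 normalised reads in siNT2 and 437, 495 and 462 in siGLI1. It rose by a log2 fold change of 0.69 (SE 0.13, adjusted p = 0.0147), with an adjusted p of 0.0719 without siNT2 replicate 1 and 0.0959 without siGLI1 replicate 2. KCNK6, a leak channel of another branch, was not called (log2 fold change 0.47, adjusted p = 0.223).

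Of the 10 sodium channel pore genes 4 were tested. SCN4A (Nav1.4), the sodium channel of mature muscle fibres, had 2219, 2942 and 1939 in siNT2 and 2278, 2929 and 3828 in siGLI1. Its groups overlapped and it was not called (log2 fold change 0.34, adjusted p = 0.353, 95% interval -0.19 to 0.87). Of the beta subunits, which anchor sodium channels at the surface, SCN3B went from a mean of 82.5 ± 13.3 to 139 ± 30.1. The SCN3B groups were separate, but it was not called (log2 fold change 0.74, adjusted p = 0.0591).

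The non-coding KCNQ1OT1, which lies antisense within KCNQ1, had 7114, 6643 and 5942 normalised reads in siNT2 and 12257, 9773 and 7106 in siGLI1. siGLI1 library 3 fell inside the siNT2 range, and the gene was not called (log2 fold change 0.53, adjusted p = 0.116). KCNQ1 itself, a delayed rectifier known from the heart, had 1.10, 0 and 0 in siNT2 and 7.56, 14.3 and 16.8 in siGLI1. Strand was not given and overlap of exons was not checked, so reads of this pair may be mixed.

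Levels were compared between genes only after division by the length of the longest annotated transcript, as normalised reads per kilobase. On that scale KCNS3 led the coding members, at 518 in siNT2 and 889 in siGLI1. GRIK5 followed at 328 and 410, SCN4A at 303 and 386, KCNH2 (the heart potassium channel hERG, named after its values were seen) at 165 and 221, KCNC1 at 154 and 88.3, and CACNB1 at 149 and 287. GRIN1 stood at 96.1 in siNT2, close to KCNJ11 at 95.1, and at 3.36 in siGLI1, where KCNJ11 was at 88.6. The order of the leading genes therefore mixed a silent potassium channel subunit, a kainate subunit and the muscle sodium channel. GRIN1 stood below these leading genes in siNT2, and far below KCNJ11 in siGLI1.

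Beneath the filter lay 88 members. Of these, 52 never exceeded 3 reads in any library, among them 17 at 0 in all 6, and 36 exceeded 3 reads in at least 1. When all genes with reads were tested without the filter, 136 members entered, and 8 of those under the filter were called, 5 higher and 3 lower. Over all genes in that fit 6.07% were called higher and 5.47% lower, and 16 and 9 members were. The 5 higher were KCNQ1, KCNJ12, KCNMA1, CACNA1I and KCND2, with adjusted p-values of 0.00343, 0.0111, 0.0278, 0.0272 and 0.036, and KCND2 stood at or under the floor in every library. The 3 lower were KCNN4 (8.78, 9.13 and 7.97 against 1.08, 2.04 and 2.96), CACNA2D3 (12.1, 8.11 and 7.97 against 3.24, 2.04 and 2.96) and KCNK12 (8.78, 13.2 and 6.38 against 4.32, 2.04 and 1.98). Their adjusted p-values were 0.0195, 0.0288 and 0.0496. These genes, except KCNJ12 and KCNMA1, were named after their values were seen.

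**Figure D4:**
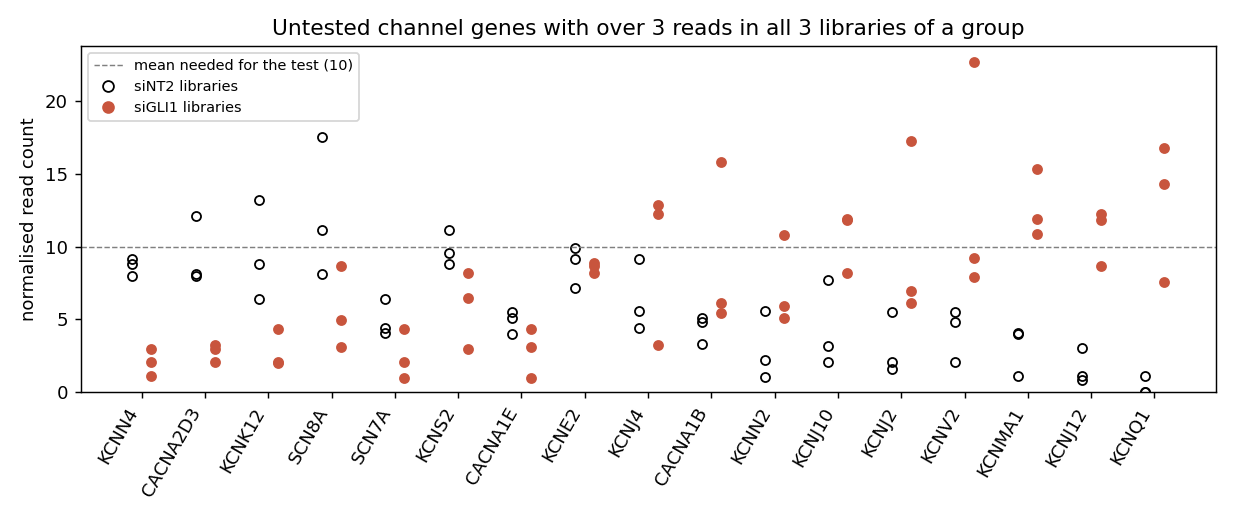
Normalised read counts of the 17 channel genes under the filter that exceed 3 reads in all 3 libraries of at least 1 group, with siNT2 libraries as open circles, siGLI1 libraries as filled circles and the dashed line at the mean of 10 needed for the test. KCNN4 and CACNA2D3 lie lower in siGLI1 and KCNQ1, KCNJ12 and KCNMA1 higher, while KCNE2 and SCN7A overlap between the groups.

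GC content moved with the calls. Called members that rose had a median transcript GC content of 49.7% and those that fell 63.6%, beside 55.3% over the members tested and 49.1% over all genes tested. After the trend with GC content was removed in each library, all 17 calls were kept, and 18 more members were called, 13 higher and 5 lower. That made 24 higher and 11 lower, where 17.2% of all genes were then called higher and 16.5% lower. SCN4A, CACNB1, CACNA1S and GRIK5 were among the 18, at corrected log2 fold changes of 0.50, 1.13, 1.25 and 0.55 and adjusted p-values of 0.00945, 0.000908, 0.0164 and 0.00454. GRIN3B was among them as well, at -0.73 (adjusted p = 0.0254). GRIN1 kept its size at -4.48.

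**Figure D5:**
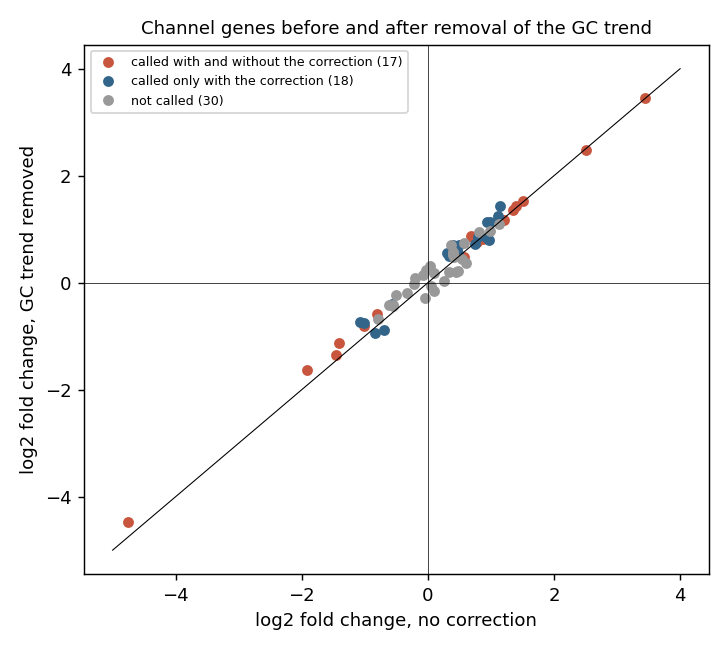
Log2 fold change of each channel gene tested without (x axis) and with (y axis) removal of the trend with GC content in each library; the diagonal marks equal values, and colours give the calls. The 17 genes called both ways lie along the diagonal, and the 18 genes called only with the correction lie between GRIN3B at -1.08 and KCNF1 at 1.14 without it.

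Ion pumps, exchangers, other channels and scaffold proteins that work with these channels were taken as a list of 91 genes, of which 66 were tested, 15 rose, 6 fell and 45 were not called, with a median log2 fold change of 0.10. Over all genes tested 7.21% were called higher and 8% lower, and the median was -0.01. The called genes named from it kept their calls without any 1 library, in fits that tested the same genes as the fit to all 6. For calcium export the list holds pumps and exchangers. ATP2B4, a plasma membrane calcium pump, fell from 1911, 1957 and 2821 to 311, 293 and 339 (log2 fold change -2.80, adjusted p = 0.000277). SLC8A3, the sodium-calcium exchanger of muscle and brain, fell from 553, 376 and 542 to 71.3, 63.4 and 47.4 (log2 fold change -2.99, adjusted p = 0.000514). SLC8A2, another exchanger of that family, rose from 3.29, 5.07 and 3.99 to 15.1, 19.4 and 20.7 (log2 fold change 1.93, adjusted p = 0.00673). The pump gene ATP2B1 and the exchanger gene SLC8A1, named after their values were seen, were not called. Their log2 fold changes were 0.27 and -0.44, with adjusted p-values of 0.518 and 0.297.

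LRRC8A, the obligatory subunit of the volume-regulated anion channel, fell from 2555 ± 268 to 770 ± 120.0 (log2 fold change -1.74, adjusted p = 0.00107). ANO1, a calcium-activated chloride channel, fell from 28.6, 27.4 and 14.4 to 2.16, 0 and 0.988, at or under the floor in siGLI1 (adjusted p = 0.00431). DLG2, a scaffold that binds NMDA receptors and potassium channels, rose from 191, 150 and 188 to 798, 622 and 464 (log2 fold change 1.80, adjusted p = 0.00276).

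Markers of skeletal muscle moved with the groups. Over 10 muscle genes the summed normalised count was 49591 to 63638 in the siNT2 libraries and 76036 to 113616 in the siGLI1 libraries, and of 8 tested 5 were higher and none lower. ACTC1, a cardiac-type actin of developing muscle, was among the 5 (log2 fold change 1.6), and MYOD1, the muscle-determining factor, was not (log2 fold change -0.04). Of 11 neuron markers, ELAVL4, SNAP25, NEFM, NEFL and STMN2 were at 0 in all 6 libraries. The list summed to 1891 to 2120 in siNT2 and 2537 to 3058 in siGLI1, most of it MAP2 and TUBB3. Of 4 tested, only MAP2 was called, its mean rising from 888 to 1767 (adjusted p = 0.0315). That call was kept only without siGLI1 replicate 3 (adjusted p = 0.0101), the other omissions giving up to 0.124. The TUBB3 mean went from 820 to 642 without a call (adjusted p = 0.235). Glia, cardiac muscle and epithelium markers summed to 67.8 to 87.2, 181 to 245 and 126 to 158 in siNT2 and to 36.7 to 50.1, 239 to 254 and 94.0 to 104 in siGLI1. HBB, a blood marker, was at 0 throughout. Endothelium and blood markers summed to 22.3 to 32.9 and 19.9 to 23.3 in siNT2 and to 98.1 to 104 and 25.9 to 54.3 in siGLI1. Of the 4 endothelium markers only PECAM1 was tested, and it rose from 13.2, 14.2 and 5.58 to 86.4, 81.8 and 90.9 (adjusted p = 0.00226), which made up most of that sum in siGLI1. The part of these differences in the channel results was not tested.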

How the data were processed

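The authors deposited 1 table of signal values for the 6 libraries, read counts per gene divided by a size factor per library. Each value corresponded to a whole number of reads within 0.01, so the reads themselves were recovered. The submitters' processing notes name the build hg19 and, in no order, DESeq2 2.11.40.6, Subread 1.6.4 with featureCounts, Bowtie2 2.3.3.1, Trim Galore 0.4.5 and bcl2fastq. Strand and annotation were not given in the sources used here. Symbols came from RefSeq GRCh38.p14 by Entrez number (23696 of 25702), and lengths, GC content and 3′ UTRs from GENCODE 29 (GC for 93.8% of genes tested). The test was limma 3.58.1 (lmFit, eBayes with trend; R 4.3.3) on log2(value + 1), with the group as only term, over genes with a mean of 10 or more, with Benjamini-Hochberg adjustment at 0.05. The count tests edgeR 4.0.16 and DESeq2 1.42.0 on the recovered reads, other pseudocounts and filters, TMM scaling, GC correction (a lowess trend removed per library), a replicate block and each library left out were alternatives. On simulated counts for 15622 genes, limma recovered 98% of genes changed 2-fold and 100% of those changed 4-fold, and 3.41% of its calls were false. These rates describe the simulated counts only, and the settings of the simulation are not given here. They are no measure of power or false calls in the deposited libraries. Those libraries followed GC content (rho 0.747 in siGLI1 replicate 3), and 5 of the 17 member calls held without any 1 library.

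The members and lists were chosen with earlier results of these data known. Named genes were all members called, the 2 highest of each family, 14 muscle channel genes, at most 4 partner genes per direction and 2 markers per list. A few genes taken by this rule do not appear here. A planned search of protein sequences was not run.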

Additional observations from a re-analysis of the deposited data

How the results depend on the processing

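The counts of calls moved with the libraries used and with the correction for GC content. The members called higher numbered 11 with all 6 libraries and 3 to 15 with 1 left out, and those called lower 6 and 2 to 9, while all genes called higher ranged from 283 to 1562 and all genes called lower from 358 to 1705. The median of the members ranged from 0.25 to 0.37. All 6 of these fits kept 5 calls, GRIN1, KCNC4, CACNA2D4 and KCNE4 among them. With GC correction 24 members were higher and 11 lower, of 2517 and 2422 genes in all, with a members' median of 0.47. DESeq2 called 18 members higher and edgeR and DESeq2 each kept all 17 calls. Libraries with the same replicate number share the start of a code in the labels, whose meaning the labels do not give, so whether the numbers pair them is not known. Same-numbered libraries correlated at 0.494, -0.109 and -0.614 in their deviations from the group means, deviations that also followed GC content, so the block was kept as an alternative. With the replicate number as a block, 3 members were called higher and 4 lower, 7 of the 17 calls were kept and the other 10 lost, and 462 genes in all were higher and 508 lower. With block and GC correction together, 21 members were higher and 10 lower, of 1994 and 1920 genes in all, with a median of 0.47.

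KCNJ11 changed sign with GC correction (0.13), with block and GC correction (0.13), and on leaving out siNT2 replicate 1, siNT2 replicate 2 or siGLI1 replicate 2 (range over the 6 fits -0.31 to 0.0595), and KCNJ14 on leaving out siNT2 replicate 3 or siGLI1 replicate 3 (range -0.0227 to 0.21). Neither was called in any of these fits. The cause of these changes was not tested. Depth limits the 88 members under the filter, of which 52 never exceeded 3 reads in any library.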
